A study of Mus musculus with 4 samples.

Results

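Long non-coding RNAs (lncRNAs) are transcripts with no open reading frame that is known to be translated. The well covered annotated lncRNA transcripts described here are those of N2a cells, a mouse neuroblastoma line with traits of immature neurons, with and without an excess of manganese, a metal that is essential in traces and toxic to neurons in excess. The transcripts were chosen by 2 criteria, an Ensembl mouse transcript identifier and at least 100 estimated reads over both libraries. Both were met by 962 of 30690 rows of the lncRNA table. The table held 30196 rows with such an identifier, of which 8492 had any read, and 494 newly assembled transcripts. The choice used the sum over both libraries. A transcript seen in one library could therefore enter through that library alone, and such transcripts are counted separately below.

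The untreated group was N2a cells, and the treated group was N2a cells kept for 48 h in medium with 300 µM manganese. For each, 1 library was made from total RNA after removal of ribosomal RNA. The labels give C57BL/6 as the strain of all samples and repeat the treatment text for all of them, so the titles alone separate the groups. The model is 1 established tumour line. Of 5 marker genes of sympathoadrenal cells and neurons looked up in the gene table, 4 had at least 20 reads. They included the transcription factor Hand2, with 2674 reads untreated and 2951 with manganese, and the neuronal tubulin Tubb3, with 33400 and 33715. The transcription factor Phox2a had 1485.87 and 1368.74 reads, and Gata3 had 240.13 and 226.74. Over the totals of the gene table, the log2 ratios of the Mn-treated over the untreated library were 0.08 for Hand2 and -0.05 for Tubb3. They were -0.18 for Phox2a and -0.14 for Gata3. The neurofilament gene Nefm had 0 reads in both. With 1 library per group there is no estimate of spread, no difference has a replicate check, and every ratio compares 2 libraries, not 2 conditions. Square brackets give exact binomial (Clopper-Pearson) 95% intervals. They cover counting error only and take each read as independent. Reads copied by PCR are not independent molecules, so the intervals may be too narrow even for that.

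Many lncRNAs stay in the nucleus, where some scaffold nuclear bodies or act on chromatin, while others are spliced hosts from which small nucleolar RNAs or microRNAs are cut, or lie in imprinted clusters. Their genes often overlap other genes, or give several isoforms that share exons. A short read from a shared exon does not show which transcript it came from. A counting program may divide such a read among the candidates, which leaves a count that is not whole. The table gives identifiers without symbols, and no table used here pairs Ensembl transcript identifiers with symbols. Of 61 lncRNA symbols on 6 lists of hosts, nuclear, imprinted, neural, stress-linked and microRNA-host lncRNAs, 2 were present in the gene table and 1 of them, Snhg4, a host of small nucleolar RNAs, had at least 20 reads there (2.72 and 22.45). Transcripts are therefore described by their rank in total reads, and 4 identifiers are printed.

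The reads of the lncRNA table summed to 8042644 untreated and 7295089 with manganese. The 962 transcripts took 72.5% of the untreated and 69.8% of the Mn-treated reads, and most of that belonged to 1 transcript. This most abundant transcript had 5180172 reads untreated and 4368700 with manganese. It made up 64.4% [64.38 to 64.44] of the untreated and 59.9% [59.85 to 59.92] of the Mn-treated lncRNA reads. The other 961 held 653788 and 725571 reads, which are 8.13% and 9.95% of the totals. The newly assembled transcripts held 26.8% and 29.3%, and the annotated rows below 100 reads held 0.687% and 0.878%.

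**Figure D1:**
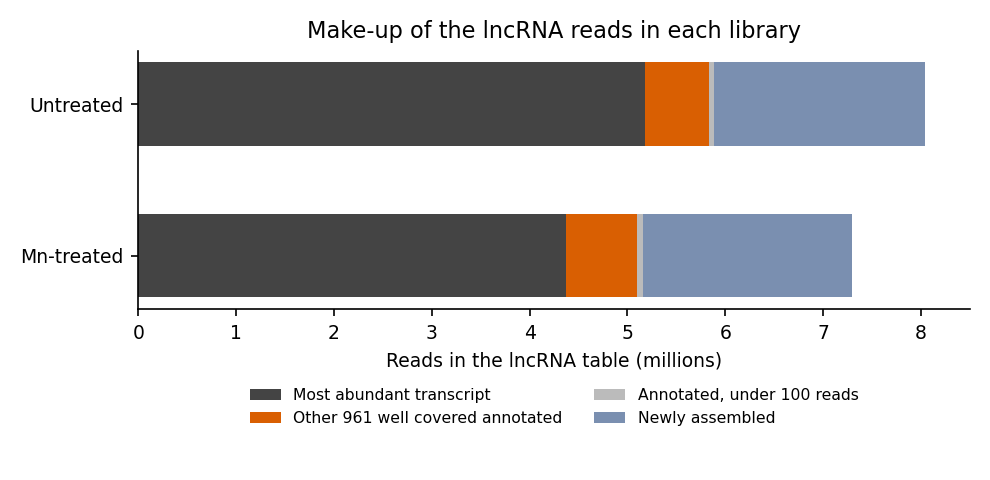
Reads of the lncRNA table (x axis) for either library, divided by colour into the most abundant transcript, the other 961 well covered annotated transcripts, annotated rows under 100 reads and newly assembled transcripts. The most abundant transcript takes 64.4% of the untreated and 59.9% of the Mn-treated reads, so it sets most of each total.

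A ratio over the column totals depends on that transcript. The total of the Mn-treated library over that of the untreated one was -0.14 on the log2 scale with the transcript and 0.03 without it. Leaving it out lowered the log2 ratio of every transcript by 0.17. The ratios below use the totals without it, 2862472 and 2926389 reads, after 0.5 was added to each rounded count. A value above 0 means more in the Mn-treated library. On this scale the median log2 ratio of the 962 transcripts was 0.05, with an interquartile range from -0.34 to 0.54. All rows of the table with at least 20 reads had a median of 0.16, with an interquartile range from -0.48 to 0.82.

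The zero point could not be fixed from the lncRNA table. The same median was 0.22 with the most abundant transcript kept in the totals, and -0.30 with the 10 most abundant rows of the table left out, of which 4 were annotated and 6 newly assembled. It was -0.10 when the libraries were scaled by the median ratio of rows with at least 20 reads, and 0.02 over the totals of the mRNA table (13972437 and 14606961 reads). These scales move every transcript by the same amount, so differences between transcripts do not depend on them, but signs and counts past a fold do.

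The 10 most abundant of the 962 transcripts were all within 2-fold between the libraries, with log2 ratios from -0.28 to 0.75. The first, whose reads are given above, had a log2 ratio of counts of -0.28 [-0.28 to -0.28]. Its FPKM values (reads scaled to transcript length and library size, as deposited) were 65173 untreated and 53168 with manganese. The second had 217413 and 191583 reads, whole numbers in both libraries, and a log2 ratio of -0.21 [-0.22 to -0.21]. Both were lower in the Mn-treated library on each of the 5 scales, and with the full column totals they were at -0.11 and -0.04. By reads the first exceeded the second many times over. Per length the gap was smaller, since the second stood at 32405 and 27622 FPKM. In reads per unit of FPKM, which is proportional to transcript length, the first was 2.39 times as long as the median of the 962 and the second 0.202 times.

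The third most abundant transcript stood at 0.75 [0.73 to 0.77], from 42563.23 and 73078.31 estimated reads. The sixth had 11615.33 and 18254.42 reads, at 0.62 [0.59 to 0.65], and the eighth had 8466.82 and 13838.89, at 0.68 [0.64 to 0.72]. These 3 were higher in the Mn-treated library on each of the 5 scales, at 0.40, 0.27 and 0.33 on the scale that left out the 10 most abundant rows. The transcripts ranked 4, 5, 7, 9 and 10 lay between 0.02 and 0.28, and the sign of each turned on at least 1 scale. The ninth was nearly level, with 10067.90 and 10454.74 reads and 436.96 and 438.93 FPKM.

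Whole counts separated a small set from the rest. Of the 962 transcripts 102 (10.6%) had whole counts in both libraries, within 0.001, 53 had a whole count in 1 library and 807 in neither. The 860 transcripts that were not whole in both libraries are called fractional here. Whole-count transcripts had fewer reads, with a median of 170.5 over both libraries against 226.5. They were longer, with a median of 1.58 times the length of the median transcript against 0.880 times. The medians of the log2 ratio were alike, at 0.05 and 0.06. The spread was not. The interquartile range ran from -0.31 to 0.42 for whole counts and from -0.36 to 0.56 for fractional counts. The extremes of the whole-count ratios were -1.38 and 1.65, while 23 fractional transcripts lay past 8-fold in either direction. Of these 23, 9 had 0 reads untreated and 5 had 0 with manganese. Such transcripts entered through the other library alone, and a 0 beside a fractional count is called fractional by construction. Extremes also depend on the number of transcripts, 102 against 860.

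With manganese 100 of the 962 transcripts stood 2-fold or more above the untreated library and 70 stood 2-fold or more below it. Together they made up 17.7% of the 962. Of all rows with at least 20 reads 32.7% were past 2-fold, and of the 1237 rows with at least 100 reads, most of which are these 962, 16.4%. The share among the 962 is thus below that of rows with at least 20 reads. It is near that of rows with at least 100 reads, which the 962 largely make up. The newly assembled transcripts with at least 100 reads had 12%. By direction, 19.7% of rows with at least 20 reads were higher and 13.0% lower, and at 100 reads 10.3% and 6.14%. The division into higher and lower turned with the scale. It was 145 and 48 with the most abundant transcript in the totals, 81 and 91 with median-ratio scaling, and 61 and 134 without the 10 most abundant rows. Of the 170 transcripts past 2-fold, 109 stayed past 2-fold on all 5 scales, 61 of them higher and 48 lower. The others fell short of 2-fold on at least 1 scale, and none changed sign.

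Among whole-count transcripts 9 of 102 were past 2-fold (8.82%), 4 higher and 5 lower. Among fractional transcripts 161 of 860 were (18.7%), 96 higher and 65 lower. The interval lay wholly beyond 2-fold for 2 whole-count and 80 fractional transcripts, 82 of the 962. The background is 458 of the 3372 rows with at least 20 reads and 95 of the 1237 with at least 100. For fractional counts the interval was taken on rounded estimates and leaves out any error from dividing shared reads. Past 8-fold there were 0 whole-count transcripts. No test was made of these differences, since transcripts are not replicates of a condition.

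**Figure D2:**
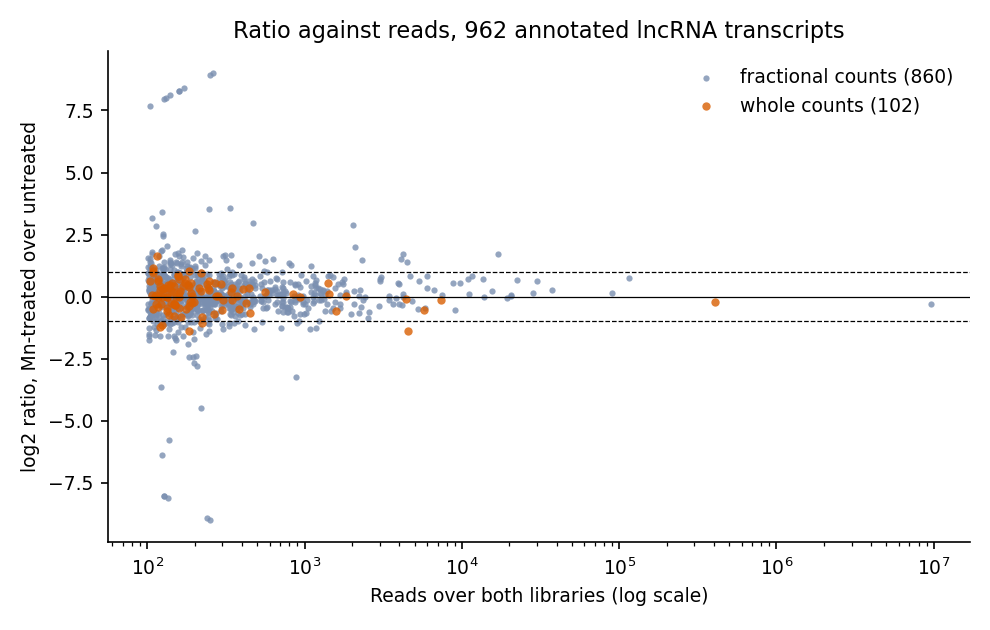
The log2 ratio of the Mn-treated over the untreated library (y axis) against reads over both libraries (x axis, log scale) for 102 whole-count and 860 fractional transcripts, 1 point each. Dashed lines mark 2-fold, points beyond 7.5 in either direction have 0 reads in one library and stand at a value set by the added 0.5, and the whole-count points stay between -1.38 and 1.65.

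The larger share past 2-fold among fractional transcripts was also seen at like read numbers, up to 2000 reads. With 100 to under 200 reads, 7 of 65 whole-count transcripts (10.8%) and 104 of 372 fractional ones (28.0%) were past 2-fold. With 200 to under 500 reads these were 1 of 25 (4.0%) and 36 of 286 (12.6%), and with 500 to under 2000 reads 0 of 7 and 14 of 143 (9.79%). With 2000 reads or more the order was the other way, 1 of 5 and 7 of 59 (11.9%), on 5 whole-count transcripts. The median width of the counting interval was similar for both kinds in each of the lower pair of classes, at 1.01 and 1.06 log2 units for 100 to under 200 reads and 0.69 and 0.71 for 200 to under 500. This width follows from the counts alone, so it is alike at like reads by construction. It leaves out any error from dividing shared reads, and does not show that both kinds are equally precise.

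**Figure D3:**
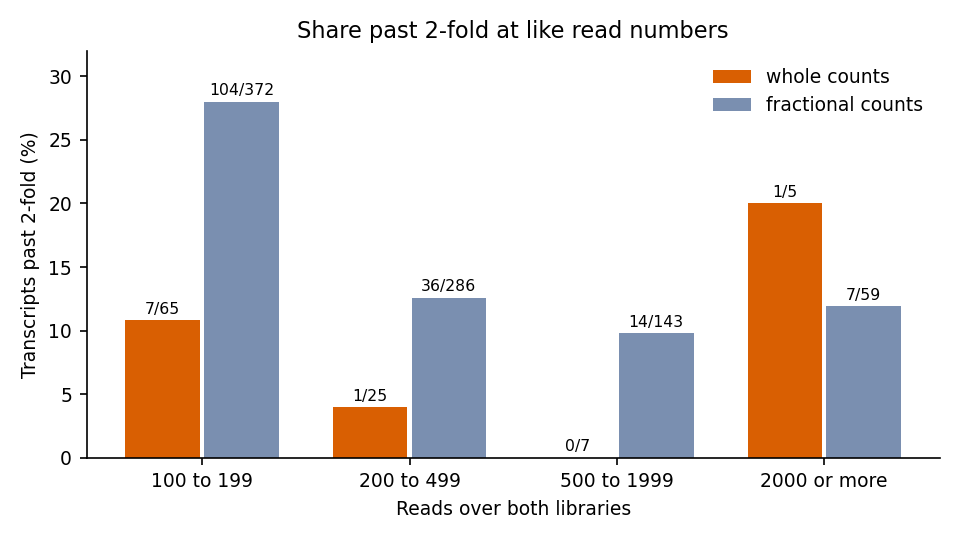
Percent of transcripts at least 2-fold higher or lower (y axis, from 0) in 4 classes of reads over both libraries (x axis), for whole-count and fractional transcripts, with the number past 2-fold over the number in the class above each bar. Fractional bars are higher in the 3 classes under 2000 reads, and the class of 2000 or more holds 5 whole-count transcripts.

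Of the 4 whole-count transcripts past 2-fold on the higher side, the largest ratio belonged to ENSMUST00000090457. Its reads were 27 untreated and 88 with manganese. The ratio was 3.15 [2.05 to 5.11], and the log2 ratio of 1.65 stayed past 2-fold on each of the 5 scales. The next was ENSMUST00000037953, with 33 and 76 reads and a ratio of 2.23 [1.48 to 3.50]. Its log2 ratio was 1.16, and 0.81 without the 10 most abundant rows, which is no longer past 2-fold. The 10 highest whole-count transcripts had 35 to 74 reads untreated and 72 to 145 with manganese apart from these, and their log2 ratios ran from 0.72 to 1.65. Each of the 10 had between 108 and 219 reads in all, where the median of the 962 was 217.3. All 10 intervals lay above 0, but the 10 were picked for their ratios. Of the 102 whole-count transcripts 25 had such an interval. Leaving out the 10 most abundant rows moves every log2 ratio by -0.35, further than the smallest lower bound, 0.17, lies from 0.

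At the other end, ENSMUST00000162828 stood at -1.38 [-1.88 to -0.91] on the log2 scale, from 133 reads untreated and 52 with manganese. ENSMUST00000182010 stood at -1.37 [-1.46 to -1.27], from 3232 and 1282 reads or 73.93 and 28.37 FPKM. It ranked 33 of 962 in reads and was the most abundant whole-count transcript past 2-fold. Both were past 2-fold lower on each of the 5 scales. Their next neighbours, with 84 and 36, 84 and 39, and 150 and 74 reads, were at -1.24, -1.13 and -1.05. The other 5 of the 10 lowest had 85 to 163 reads untreated and 52 to 103 with manganese, and log2 ratios from -0.82 to -0.69. All 10 intervals lay below 0, but these too were picked for their ratios, and 21 of the 102 whole-count transcripts had such an interval. Of the 9 whole-count transcripts past 2-fold, 4 stayed past 2-fold on all 5 scales, 1 higher and 3 lower.

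The 5 whole-count transcripts with 2000 reads or more were all lower in the Mn-treated library. Besides the second and the 33rd in rank these were transcripts with 3369 and 2392 reads, at -0.53 [-0.60 to -0.45], with 3814 and 3571, at -0.13 [-0.19 to -0.06], and with 2238 and 2141, at -0.10 [-0.18 to -0.01]. Of the 59 fractional transcripts in this class 38 were above 0, and their median was 0.15. The last pair of the whole-count values, at -0.13 and -0.10, is smaller than the 0.17 by which the choice of totals moves every ratio, so their sign rests on that choice.

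Abundant fractional transcripts past 2-fold were all higher in the Mn-treated library. There were 7 of them with 2000 reads or more, and all 7 stayed past 2-fold on each of the 5 scales. The twelfth transcript in rank had 3912.05 and 13018.73 estimated reads, a ratio of 3.25 [3.14 to 3.37]. It was long, at 5.02 times the length of the median transcript. The 64th in rank had 235.37 and 1780.37 reads, and 20.41 and 149.34 FPKM, a ratio of 7.40 [6.46 to 8.53]. The 61st had 416.43 and 1681.05 reads, a ratio of 3.95 [3.55 to 4.41]. The other 4 of this class had ratios between 2.64 and 3.28. How many of their reads are shared with overlapping transcripts is not known from these counts, and its part in the ratios was not tested.

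The largest ratios came from transcripts with no reads in one library. Of the 962, 9 had 0 reads untreated and 5 had 0 with manganese after rounding, and all 14 were fractional. Of all rows with at least 20 reads 6.32% had 0 in one library, and of rows with at least 100 reads 1.21%. The 9 had between 103.27 and 262.08 reads in the Mn-treated library. Against a floor of 3 counts in the untreated library, with the other library's reads taken as exact, they were at least 33.6-fold to at least 85.4-fold higher. The 5 had between 126.92 and 249.80 reads untreated, at least 43.3-fold to at least 85.2-fold lower. Transcripts with 0 reads in one library met the limit of 100 reads through the other alone, so a large bound followed from the choice. What part the division of shared reads has in these zeros was not tested. A further 2 had a few reads with manganese, 2.23 against 134.87 and 0.99 against 122.87. Their log2 ratios were -5.79 [-9.17 to -4.23] and -6.40 [-12.3 to -4.47]. With the 14 at their bounds the median of the fractional transcripts is 0.06 as before, by construction, since each stays on its side of the median.

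Outside these, the lowest ratio on at least 500 reads was that of the 135th in rank, with 796.29 reads untreated and 85.36 with manganese. Its log2 ratio was -3.25 [-3.60 to -2.94], and its FPKM values were 7.98 and 0.83. Of the 143 fractional transcripts with 500 to under 2000 reads, 8 stood 2-fold or more above the untreated library and 6 below it. The transcripts nearest to the inclusion limit, given here, all had fractional counts. Just inside it, 100.30, 100.38 and 100.49 reads in all gave log2 ratios of -0.49, 0.69 and -0.55. Just outside, 99.63, 99.79 and 99.81 reads gave -0.26, 3.22 and 1.77.

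By their medians the longest transcripts stood higher in the Mn-treated library than shorter ones. When the 962 were divided into 4 classes of equal size by reads per unit of FPKM, the medians of the log2 ratio were -0.03, -0.03, 0.02 and 0.31 from the shortest to the longest class. In the longest class 161 of 241 transcripts were above 0, against 116 of 241 in the shortest. The step to the longest class appeared in both kinds of count. For fractional transcripts the medians were -0.01, -0.03, 0.05 and 0.28. For whole-count ones they were -0.21, 0.05, -0.23 and 0.34, over 11, 12, 39 and 40 transcripts. Of the 100 transcripts at least 2-fold higher 39 were in the longest class and 21 in the shortest, and of the 70 lower ones 16 and 14. The difference between the longest and the shortest class does not depend on the scale. Length here is itself a ratio of counts to FPKM, which is imprecise where FPKM is low, since FPKM is given to 2 decimals.

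**Figure D4:**
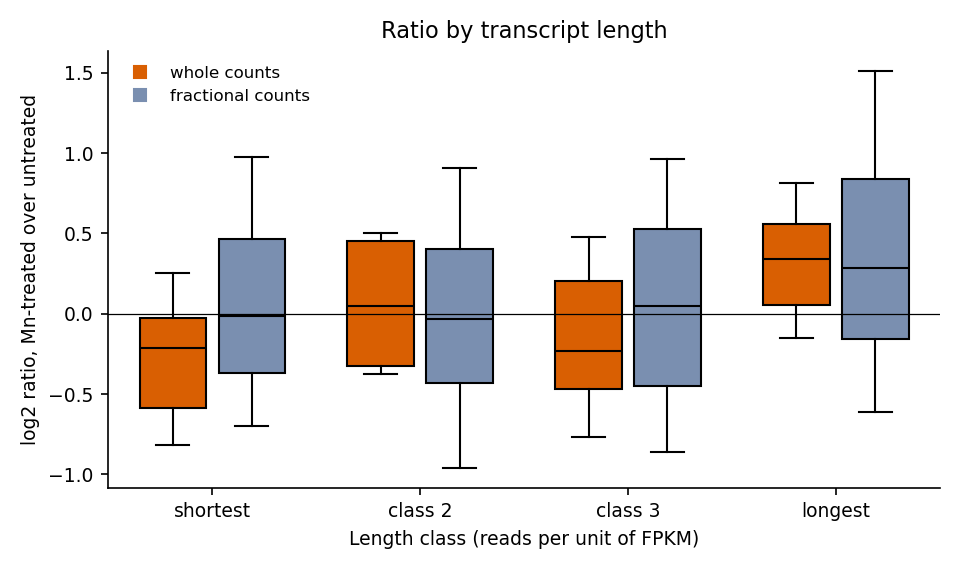
The log2 ratio of the Mn-treated over the untreated library (y axis) in 4 classes of transcript length, read as reads per unit of FPKM (x axis), for whole-count and fractional transcripts. Boxes span the interquartile range with the median as a line and whiskers run from the 10th to the 90th percentile. The longest class has medians of 0.34 and 0.28, above those of the other 3 classes.

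The authors' deposited fold change rests on FPKM values and lay close to the ratio of counts where neither library was near 0. Over the 782 transcripts with more than 1 FPKM in both libraries, the reads behind 1 FPKM were higher in the Mn-treated library by 0.04 to 0.06 on the log2 scale, so nearly the same shift held for each of them. The log2 fold changes of the authors' deposited table lay 0.02 below the ratio of counts at the median. They differed by more than 0.1 for 17 transcripts, all of them fractional. Of these 16 had at most 0.1 FPKM in one library. For transcripts with 0 FPKM, which the authors replaced by 0.001, the authors' deposited table gives log2 fold changes as far out as -13.6 and 14.0. Opposite signs occurred for 12 transcripts, none of them further than 0.018 from 0 in the ratio of counts.

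The authors' deposited p-values were not centred on a fold change of 0. A false discovery rate under 0.05 is given in the authors' deposited table for 502 of the 962 transcripts (52.2%). The background is 54.3% of rows with at least 100 reads and 41.6% of rows with at least 20. Of the 502, 360 are higher with manganese (37.4% of the 962) and 142 lower (14.8%) in the authors' deposited table. The background is 40.3% higher and 14.0% lower among rows with at least 100 reads, and 30.0% and 11.7% among rows with at least 20. Of those within 1.5-fold 144 are higher and 17 lower in that table. This count, and those on abundant transcripts below, were made among the 962 only. They are not set against all rows and are not shown to be particular to these transcripts. The test behind these values is not named in the header, and with 1 library per group it had no replicates to draw on.

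Abundant transcripts show this best. Of 119 with at least 1000 reads, 10 have a p of 0.3 or more in the authors' deposited table. The log2 fold changes of these 10 in the authors' deposited table lie between -0.28 and -0.10, with a median of -0.17, and none is at 0. A transcript with an equal share of both column totals, the most abundant transcript included, would have an FPKM log2 ratio of -0.19. Of 19 transcripts with at least 1000 reads and a log2 fold change within 0.1 of 0 in the authors' deposited table, 16 have a false discovery rate under 0.05 there. The ninth in rank is one, with a log2 fold change of 0.01 and a false discovery rate of 3.05e-10 in the authors' deposited table. The second in rank is the reverse case, with -0.23 and 0.156 in the authors' deposited table. Without the most abundant transcript in the totals the point of equal share would be at -0.02.

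**Figure D5:**
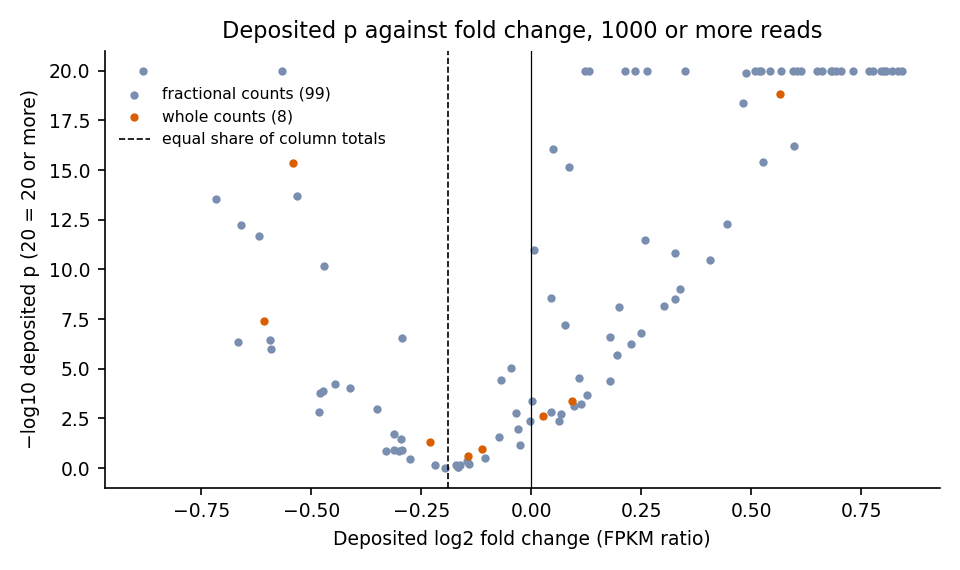
The deposited −log10 p (y axis, values over 20 drawn at 20) against the deposited log2 fold change (x axis) for 99 fractional and 8 whole-count transcripts with at least 1000 reads and a fold change within 1 of 0. The smallest values of −log10 p lie near the dashed line at -0.19, an equal share of both column totals, and not at 0.

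By the same measures the newly assembled transcripts had other values. Of the 275 with at least 100 reads 27 were past 2-fold on the higher side and 6 on the lower, with a median log2 ratio of 0.28. Their 107 whole-count transcripts had a median of 0.02 and their 168 fractional ones 0.54. For the 102 and 860 annotated transcripts these medians were 0.05 and 0.06. Whether the 2 classes differ was not tested, since transcripts are not replicates.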

How the data were processed

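The tools named per the submitters' processing notes are fastp 0.18.0, Bowtie2 and StringTie, with mm9 as the build. As for the counting program, its use of strand and the annotation release, each is not given in the sources used here. Estimated counts and FPKM values per lncRNA transcript and per mRNA gene were deposited by the authors. Their log2 fold change, as deposited, is the ratio of both FPKM values after 0 was set to 0.001, and the authors' p-value and its false discovery rate stand beside it. The circRNA and small RNA tables were not used here. The labels do not say whether the libraries came from separate cultures.

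From these, counts were rounded, 0.5 was added, and ratios were taken over column totals without the most abundant transcript, with Python 3.11.15 and SciPy 1.17.1. Intervals are exact conditional binomial ones at 95%. Ratios and intervals were tried on simulated whole counts with known folds and counting error alone. That setting has no divided reads and no spread between cultures, so it does not test the intervals of fractional counts. A transcript was called past 2-fold, with no test, as each group had 1 library. The transcripts and lists were chosen with earlier results of these data known. By the rule for naming, the 10 most abundant, the 10 highest and 10 lowest with whole counts and the 5 highest and 5 lowest with fractional counts are described, mostly as ranges, the last 10 among the transcripts with 0 reads in one library, and, as no symbols were paired, 2 identifiers are printed in each direction. Other transcripts singled out by rank were chosen after their values were seen. Alternatives changed the scale, the added count, the rounding, the minimum of reads, the fold and the definition of whole. The depth was 8042644 and 7295089 reads in the lncRNA table. 0 columns were left without a library. A further marker gene is not reported here.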

Additional observations from a re-analysis of the deposited data

How the results depend on the processing

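No paired analysis was possible because each group had 1 library, and for the same reason no library could be left out. A change of totals moved every ratio alike. The median log2 ratio was 0.22 with the most abundant transcript in the totals (0.22 for whole and 0.23 for fractional counts), -0.30 without the 10 most abundant rows (-0.30 and -0.29) and -0.10 with median-ratio scaling (-0.11 and -0.10). Without the 10 most abundant rows 61 transcripts were higher and 134 lower by 2-fold.

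The minimum of reads decided the counts past 2-fold. With a minimum of 20 reads 997 were past 2-fold, 591 higher and 406 lower, 157 with whole and 840 with fractional counts, and the whole-count median was 0.20. With 50 reads these were 365, 222, 143, 28 and 337. With 200 reads they were 59, 34, 25, 2 and 57. With 500 reads they were 22, 15, 7, 1 and 21, the whole-count median was -0.064, the interquartile range of fractional transcripts exceeded that of whole-count ones by 0.38 in place of 0.19, and their share past 2-fold by 2.06 in place of 9.90 percentage points. With no minimum, 5260 were past 2-fold, 3007 higher and 2253 lower, 2120 with whole and 3140 with fractional counts, and the medians were 0.26 for all, 0.36 for whole and 0.20 for fractional counts. There the difference between the kinds reversed, at -0.51 in interquartile range and -10.2 percentage points in share. With 1.5-fold as the limit the counts were 375 in all, 222 higher, 153 lower, 27 whole and 348 fractional, and with 3-fold 64, 40, 24, 1 and 63. Over annotated rows alone the most abundant transcript took 88.0% and 84.7% of the reads. In all, 95 of the summary values were labelled as kept under an alternative, 56 as moved and 2 as reversed. A median could be labelled only as kept or moved. Medians that changed sign, such as -0.30 without the 10 most abundant rows, are therefore among the moved. Some kept values could not change, such as a median under another fold limit, or a spread under other totals. Of the values of single transcripts named by the rule 240 stayed within their counting interval, 40 moved beyond it and 0 were labelled as reversed. That label was open only to transcripts past 2-fold that changed sign. Sign changes of smaller ratios, and calls that fell short of 2-fold on another scale, are not counted by it.

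Depth limits the ratios of the less covered transcripts. The median counting interval was 1.01 log2 units wide for whole counts of 100 to under 200 reads. Without replicates, culture, library and treatment cannot be told apart.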

Other observations

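Annotated transcripts below the inclusion limit had more extreme ratios. With 20 to under 100 reads 148 of 487 whole-count transcripts (30.4%) and 679 of 1479 fractional ones (45.9%) were past 2-fold. Of the whole-count ones 7 had 0 reads untreated and 3 had 0 with manganese, and of the fractional ones 101 and 79. Among newly assembled transcripts with at least 100 reads 11 of 107 whole-count (10.3%) and 22 of 168 fractional ones (13.1%) were past 2-fold.

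The 53 transcripts with a whole count in 1 library and a fractional one in the other are part of the fractional set. Of them 18 were past 2-fold (34.0%), 13 higher and 5 lower, and 12 had 0 reads in one library, 8 untreated and 4 with manganese. Of the 807 that were fractional in both libraries 143 were past 2-fold (17.7%). A count of 0 is itself whole, so a transcript with 0 reads and a fractional count falls into the first set by construction.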
